A study of Mus musculus with 10 samples.

Results

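Genes of bile acid synthesis and transport were examined in the livers of mice heterozygous for a knockout of Tgfbr2, which encodes a TGF-beta receptor that binds the ligand and starts the signal. The set was defined by gene symbol in the platform annotation and holds 10 genes: Cyp7a1, Cyp8b1, Cyp27a1, Baat, Slc10a1, Slco1b2, Abcb11, Aqp8, Nr1h4 and Nr0b2. Of these, 9 were measured, with 1 probe each, among 16383 genes in all, and Cyp27a1 was not analysed here. The data hold 10 libraries, each from the liver of 1 mouse on a chow diet: 6 Tgfbr2+/- mice, named as males in the titles, and 4 WT littermates, for which the titles state no sex. Each library was hybridised on a 2-colour array against a common pool of liver RNA from 6 WT mice. The sex of the pool, the ages, the strain, the construction of the mutant allele and the time of tissue collection are not stated in the labels. As the sex of the WT mice is not stated, sex and genotype cannot be told apart in any difference between the groups. The knockout is a heterozygous one, and the tissue is whole liver, so fewer cells of a type and less RNA per cell cannot be told apart.

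Values are log2 ratios of a library over the WT pool, and differences are Tgfbr2+/- minus WT. A ratio shows how a gene differs from the pool and gives no level, so genes are not ranked by abundance. The files hold no probe intensity and no detection call, and the number of arrays limits the precision. The direction of the ratio is likely library over pool, as each title names the pool ahead of the liver it was set against. It is not stated, and every "higher" and "lower" rests on it. Tgfbr2 itself, the mean of 2 probes, was at -0.43, -0.50, -0.38, 0.05, -0.49 and -0.18 in Tgfbr2+/- replicates 1 to 6, against 0.23, 0.37, -0.07 and 0.08 in WT replicates 1 to 4 (difference -0.47 ± 0.12, exact permutation p = 0.0143, limma adjusted p = 0.516). The probes disagreed, with differences of -0.88 ± 0.26 (exact permutation p = 0.0286) and -0.07 ± 0.09 (exact permutation p = 0.457). By the mean of the probes, the library labelled Tgfbr2+/- replicate 4 lay within the WT range and so goes against its label on this measure. On the probe with the larger difference it was at 0.20, within the WT range. On the other probe it was at -0.10, below all 4 WT livers. Over all probes, Tgfbr2+/- replicate 5 and WT replicate 1 correlated at r = -0.325, so the direction of either of these 2 libraries is not settled, and differences are also given with each turned in sign. For Tgfbr2 that gave -0.36 with WT replicate 1 turned and -0.31 with Tgfbr2+/- replicate 5 turned (unadjusted p = 0.111). The markers of hepatocytes, 7 of 12 measured, had library medians of -0.14 to 0.09 in Tgfbr2+/- and -0.09 to 0.13 in WT. Ratios against a pool of the same tissue cannot show whether a tissue's defining markers are present.

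Hepatocytes make bile acids from cholesterol. The classical route starts with the microsomal hydroxylase Cyp7a1, and an alternative route starts with the mitochondrial hydroxylase Cyp27a1. Bile acids are joined to an amino acid, pumped into the bile canaliculus, recovered in the gut and taken up again by hepatocytes from portal blood. The receptor FXR, encoded by Nr1h4, binds bile acids and activates Nr0b2, whose product SHP lowers transcription of Cyp7a1 and Cyp8b1.

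Promoter windows of 300 bases, 250 before and 50 after the annotated start, were taken from RefSeq (GRCm38.p6). Of the 10 genes, 8 matched, with 9 windows, and Cyp7a1 and Baat had no entry. The 3 windows shown are those of Nr0b2, whose groups differed most, of Abcb11, the exporter that FXR is known to activate, and of Cyp8b1, a gene repressed through SHP. Each is written in the direction of transcription, and capitals mark the motif matches described after it. They lie at chr4:133553126-133553425 on the plus strand for Nr0b2, at chr2:69342567-69342866 on the minus strand for Abcb11 and at chr9:121916256-121916555 on the minus strand for Cyp8b1.
Nr0b2: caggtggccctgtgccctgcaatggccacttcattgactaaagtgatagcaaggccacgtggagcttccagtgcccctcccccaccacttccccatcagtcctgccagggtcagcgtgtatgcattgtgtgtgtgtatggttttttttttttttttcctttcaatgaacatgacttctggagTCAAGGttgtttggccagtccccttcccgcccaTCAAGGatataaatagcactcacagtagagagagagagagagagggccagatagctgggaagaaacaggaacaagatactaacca
Abcb11: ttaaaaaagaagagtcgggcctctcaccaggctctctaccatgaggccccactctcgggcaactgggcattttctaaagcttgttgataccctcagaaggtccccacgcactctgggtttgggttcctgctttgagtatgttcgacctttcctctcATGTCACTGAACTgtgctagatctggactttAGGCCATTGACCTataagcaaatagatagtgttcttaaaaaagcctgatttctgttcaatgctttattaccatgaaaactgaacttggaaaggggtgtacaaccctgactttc
Cyp8b1: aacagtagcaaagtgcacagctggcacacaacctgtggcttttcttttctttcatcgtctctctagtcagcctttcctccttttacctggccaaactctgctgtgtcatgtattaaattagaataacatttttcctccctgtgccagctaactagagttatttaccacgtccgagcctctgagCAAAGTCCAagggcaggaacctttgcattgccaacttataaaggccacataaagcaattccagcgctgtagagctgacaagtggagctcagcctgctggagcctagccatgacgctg
Both strands of each window were searched for 6 letter patterns, and a match describes letters only. The Nr0b2 window held TCAAGG at 68 to 63 and at 35 to 30 bases before the start. This is the core, and not the whole, of the extended half-site that LRH-1, the product of Nr5a2, is known to bind. Of 32851 windows, 14.4% hold this core. The Abcb11 window held the inverted repeat AGGTCANTGACCT, the form of site that FXR is known to bind, with 2 mismatches at 94 to 82 bases before the start and with 1 mismatch at 63 to 51. Up to 2 mismatches among the 12 fixed letters were allowed, and 1.14% of all windows hold such a match. The downstream copy overlaps a half-site AGGTCA at 56 to 51, a pattern found in 16.3% of windows. The Cyp8b1 window held CAAAGTCCA, a sequence that HNF4-alpha is known to bind, at 67 to 59 bases before the start, against 0.475% of windows in all.

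Among the other genes, the Slco1b2 window held the inverted repeat with 1 mismatch at 88 to 76 bases before the start, a half-site inside it at 81 to 76, and GTTAAT, which forms part of the site of HNF1-alpha, at 66 to 61. The Nr1h4 window held a half-site at 214 to 209 and GTTAAT at 40 to 35, and 7.1% of windows hold GTTAAT. Slc10a1 had 1 half-site in 1 of its 2 windows, and the windows of Aqp8 and Cyp27a1 held no match. GTCTAGAC, a palindrome that Smad3 and Smad4 are known to bind, had no match in the 9 windows and is found in 0.213% of all.

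**Figure D1:**
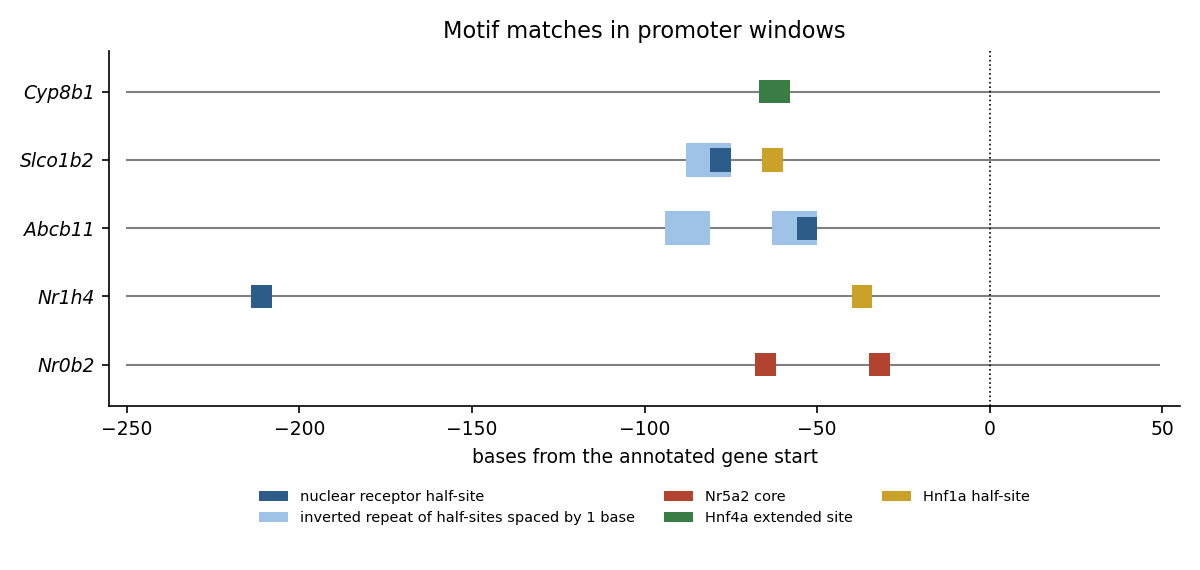
Positions of motif matches in the promoter windows of 5 genes, 1 row per gene, by distance in bases from the annotated gene start (x axis), with a colour for each pattern; the Nr5a2 core is TCAAGG and the Hnf4a extended site is CAAAGTCCA. Inverted repeats with an overlapping half-site appear for Abcb11 and Slco1b2, and the 2 TCAAGG matches of Nr0b2 lie within 68 bases of the start.

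Of the 9 measured genes, 0 differed between Tgfbr2+/- and WT liver at a limma adjusted p of 0.05, against 0.0% of all 16383 genes. Nr0b2, encoding the repressor SHP, was 1.35-fold higher and was the 1 of the 9 with an unadjusted p under 0.05, a threshold that 5.54% of all genes met, 2.97% higher and 2.57% lower. Slc10a1, the sodium-dependent uptake carrier, was 1.19-fold lower than in WT, without passing the test. It lay below the pool in all 6 Tgfbr2+/- livers and in 3 of 4 WT livers. Without WT replicate 2, the 1 WT liver above the pool, its difference was -0.12. For each of the 9 genes except Nr0b2, the SD among mice of at least 1 group was larger than the difference between groups. The groups overlapped for all 9 genes, and they did not overlap for 1.08% of all genes. In total 4 genes had positive differences (Cyp7a1, Baat, Abcb11 and Nr0b2) and 5 negative ones, where 52.6% of all genes were positive. The median difference was -0.0064, beside 0.0044 over all genes, and the median size of the difference was 0.0801, beside 0.0505.

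**Figure D2:**
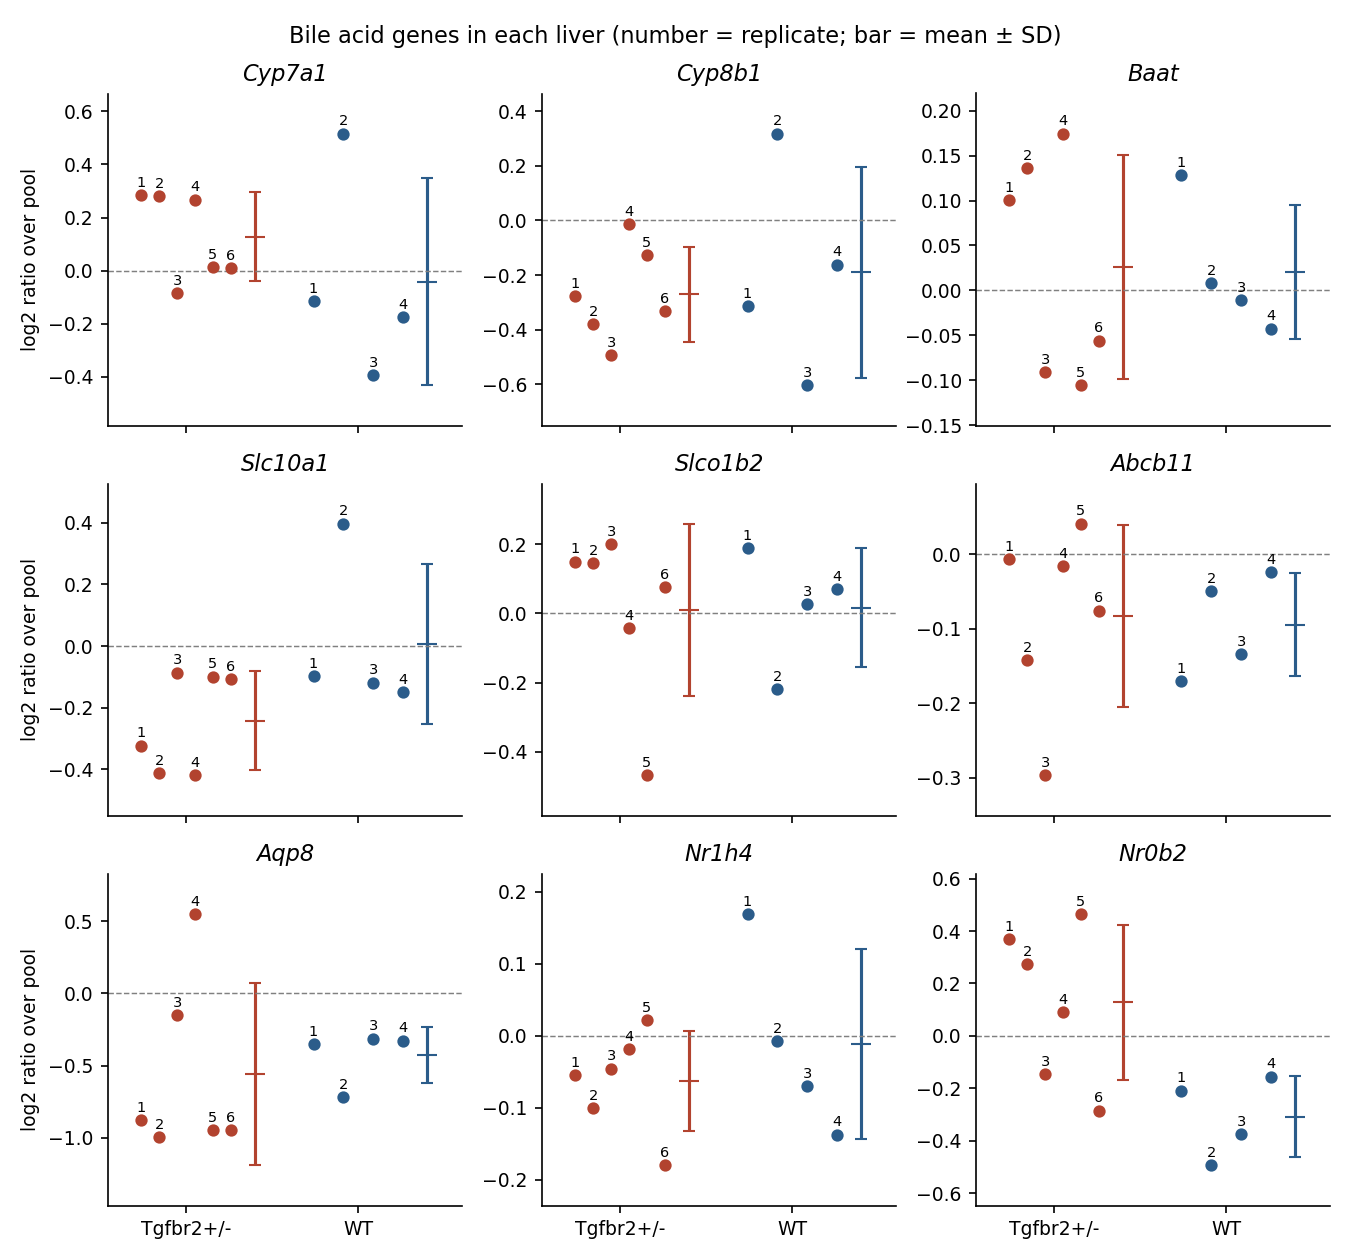
Log2 ratio over the WT pool (y axis, with its own range in each panel) of each of the 9 measured genes, with Tgfbr2+/- left of WT, a point per mouse numbered by replicate, and the mean ± SD beside the points. Nr0b2 lies above all WT values in 5 of 6 Tgfbr2+/- livers, and the widest scatter is that of Aqp8 in Tgfbr2+/- livers, at -0.99 to 0.55.

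Cyp7a1 encodes the rate-limiting enzyme of the classical route. Its log2 ratio was 0.29, 0.28, -0.09, 0.27, 0.01 and 0.01 in Tgfbr2+/- replicates 1 to 6, against -0.11, 0.52, -0.39 and -0.17 in WT replicates 1 to 4. Of the WT livers, 3 lay below all 6 Tgfbr2+/- livers and replicate 2 lay above all of them. The means were 0.13 ± 0.17 in Tgfbr2+/- (SD, n = 6) and -0.04 ± 0.39 in WT (SD, n = 4). The difference of 0.17 ± 0.15 (SE; 95% interval -0.17 to 0.51) was smaller than the SD among WT mice (limma adjusted p = 0.934, exact permutation p = 0.390). A single WT liver decided its size: the difference was 0.36 without WT replicate 2 (unadjusted p = 0.00635) and 0.05 without WT replicate 3. It was 0.11 with WT replicate 1 turned in sign and 0.17 with Tgfbr2+/- replicate 5 turned.

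Cyp8b1 encodes the sterol hydroxylase that sets the share of cholic acid among the products. All 6 Tgfbr2+/- livers lay below the pool, at -0.28, -0.38, -0.49, -0.01, -0.13 and -0.33. The WT livers lay at -0.31, 0.32, -0.60 and -0.16, so 3 of 4 were below the pool as well and their range enclosed that of the Tgfbr2+/- livers. The group means were -0.27 ± 0.17 in Tgfbr2+/- and -0.19 ± 0.39 in WT, and the difference was -0.08 ± 0.15 (95% interval -0.42 to 0.26, limma adjusted p = 0.963, exact permutation p = 0.676). Without WT replicate 2, the liver with the highest Cyp7a1 and Cyp8b1 ratios, the difference was 0.09. It was -0.24 with WT replicate 1 turned in sign and -0.04 with Tgfbr2+/- replicate 5 turned.

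Baat encodes the enzyme that conjugates bile acids with an amino acid, taurine for the most part in mice. Its ratios were 0.10, 0.14, -0.09, 0.17, -0.11 and -0.06 in Tgfbr2+/- livers, against 0.13, 0.01, -0.01 and -0.04 in WT livers. The WT range held 1 of the 6 Tgfbr2+/- livers, with 2 above it and 3 below it, and the means were 0.03 ± 0.12 in Tgfbr2+/- and 0.02 ± 0.07 in WT. The difference was 0.01 ± 0.07 (95% interval -0.14 to 0.16, limma adjusted p = 0.994, exact permutation p = 0.962), and it was 0.07 with WT replicate 1 turned in sign and 0.04 with Tgfbr2+/- replicate 5 turned.

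Of the uptake carriers of the sinusoidal membrane, Slc10a1 encodes NTCP, which takes up conjugated bile acids together with sodium. It was at -0.32, -0.41, -0.09, -0.42, -0.10 and -0.11 in Tgfbr2+/- livers, against -0.10, 0.40, -0.12 and -0.15 in WT livers. Tgfbr2+/- replicates 1, 2 and 4 lay below all WT livers, while replicates 3, 5 and 6 lay within the WT range. The means were -0.24 ± 0.16 in Tgfbr2+/- and 0.01 ± 0.26 in WT, a difference of -0.25 ± 0.12 (95% interval -0.51 to 0.01, limma unadjusted p = 0.0566, adjusted p = 0.917, exact permutation p = 0.114). WT replicate 2 stood apart from the other WT livers, and without it the difference was -0.12 (unadjusted p = 0.209). The unadjusted threshold was met without Tgfbr2+/- replicate 3, 5 or 6 or WT replicate 3 or 4, with differences of -0.30 to -0.28. With WT replicate 1 turned in sign the difference was -0.30 (unadjusted p = 0.0249), and with Tgfbr2+/- replicate 5 turned it was -0.22 (unadjusted p = 0.129).

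Slco1b2 encodes a sodium-independent organic anion carrier that takes up bile acids and drugs. Its ratios were 0.15, 0.15, 0.20, -0.04, -0.47 and 0.08 in Tgfbr2+/- livers, against 0.19, -0.22, 0.03 and 0.07 in WT livers. Tgfbr2+/- replicate 5 was the lowest of all 10, and the other 5 Tgfbr2+/- livers lay within or just above the WT range. The difference was -0.01 ± 0.13 (95% interval -0.29 to 0.27, limma adjusted p = 0.996, exact permutation p = 1), and it was 0.09 with WT replicate 1 turned in sign and 0.15 with Tgfbr2+/- replicate 5 turned.

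Abcb11 encodes BSEP, the pump that exports bile acids into the canaliculus, and its promoter window is shown above. It was among the steadier genes, at -0.01, -0.14, -0.30, -0.02, 0.04 and -0.08 in Tgfbr2+/- livers and -0.17, -0.05, -0.13 and -0.02 in WT livers. All but 1 of the 10 livers lay below the pool, and the means were -0.08 ± 0.12 in Tgfbr2+/- and -0.09 ± 0.07 in WT. The difference was 0.01 ± 0.07 (95% interval -0.14 to 0.16, limma adjusted p = 0.990, exact permutation p = 0.886). It was -0.07 with WT replicate 1 turned in sign and -0.0019 with Tgfbr2+/- replicate 5 turned.

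Aqp8 encodes a water channel of hepatocytes that takes part in canalicular water flow. The Tgfbr2+/- livers lay at -0.88, -0.99, -0.15, 0.55, -0.95 and -0.95, against -0.35, -0.72, -0.31 and -0.33 in WT livers. In Tgfbr2+/-, 4 livers lay below all WT values and 2 above them, so the difference of means describes neither set. The only value above the pool was that of Tgfbr2+/- replicate 4, whose Tgfbr2 value goes against its label on the mean of the probes and on 1 of 2 probes. The means were -0.56 ± 0.63 in Tgfbr2+/- and -0.43 ± 0.19 in WT, a difference of -0.13 ± 0.28 (95% interval -0.76 to 0.49, limma adjusted p = 0.967, exact permutation p = 0.738). Without Tgfbr2+/- replicate 4 the difference was -0.35 (unadjusted p = 0.0656), with replicate 5 turned in sign it was 0.18, with WT replicate 1 turned it was -0.31, and with quantile normalization it was -0.0015.

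Nr1h4 encodes FXR, the bile acid receptor. It varied least in the set, at -0.05, -0.10, -0.05, -0.02, 0.02 and -0.18 in Tgfbr2+/- livers, against 0.17, -0.01, -0.07 and -0.14 in WT livers. Tgfbr2+/- replicate 6 was lowest and WT replicate 1 highest, and the other values of the groups overlapped. The difference was -0.05 ± 0.06 (95% interval -0.19 to 0.09, limma adjusted p = 0.937, exact permutation p = 0.467), and it was 0.03 with WT replicate 1 turned in sign and -0.06 with Tgfbr2+/- replicate 5 turned.

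Nr0b2 encodes SHP, the repressor that FXR activates. It was at 0.37, 0.27, -0.15, 0.09, 0.47 and -0.28 in Tgfbr2+/- livers, against -0.21, -0.49, -0.37 and -0.16 in WT livers. In Tgfbr2+/-, 5 of 6 livers lay above all WT livers, replicate 3 by a small margin, and replicate 6 lay inside the WT range. The means were 0.13 ± 0.30 in Tgfbr2+/- (SD, n = 6) and -0.31 ± 0.15 in WT (SD, n = 4), a difference of 0.44 ± 0.14 (95% interval 0.12 to 0.75). It did not pass over all genes (limma unadjusted p = 0.0112, adjusted p = 0.732), and the exact permutation p was 0.0381, unadjusted, over all 210 ways to assign 10 libraries to groups of 6 and 4, whose smallest p is 0.0048. All 4 WT livers lay below the pool of WT livers, and the Tgfbr2+/- mean lay above it by less than the SD. With WT replicate 1 turned in sign the difference was 0.33 (unadjusted p = 0.0760, exact permutation p = 0.124), and with Tgfbr2+/- replicate 5 turned it was 0.28 (unadjusted p = 0.0993, exact permutation p = 0.157). With either turned, it no longer met the unadjusted threshold. With any 1 library left out the difference was 0.37 to 0.52 and limma's unadjusted p stayed below 0.05, whereas the exact permutation p passed 0.05 without Tgfbr2+/- replicate 1, 2, 4 or 5 (0.0635 each) and without WT replicate 2 or 3 (0.0833 each).

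**Figure D3:**
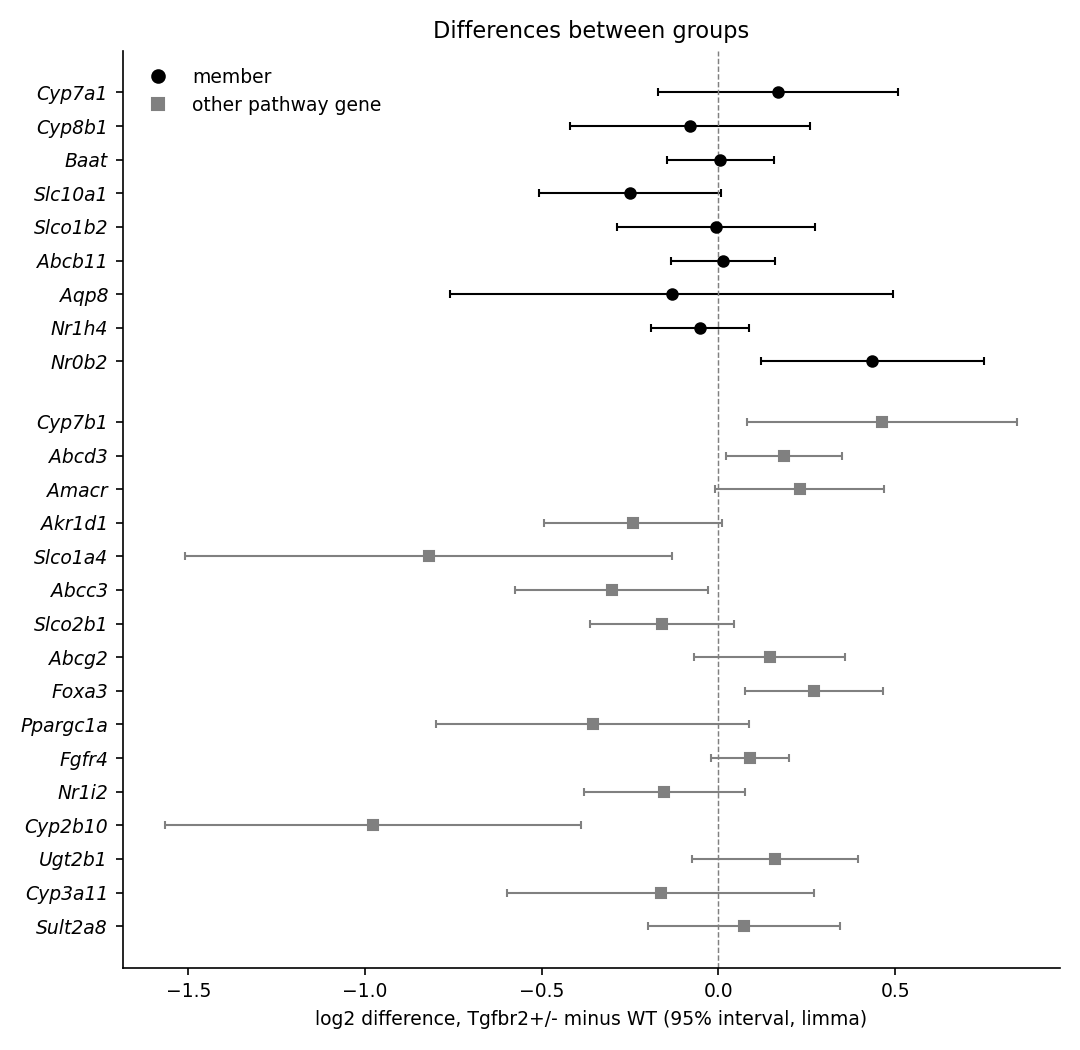
Difference Tgfbr2+/- minus WT in log2 ratio (x axis) with 95% intervals from limma, for the 9 measured genes of the set (black circles) and 16 other genes named from the pathway lists (grey squares). In the set, the interval of Nr0b2, 0.12 to 0.75, is the 1 of 9 that leaves out 0.

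The genes fell into steady and variable ones. The SD over all 10 livers lay at percentile 98.9 of all genes for Aqp8, 96.4 for Nr0b2, 93.9 for Cyp7a1, 93.2 for Cyp8b1, 90.3 for Slc10a1 and 87.8 for Slco1b2. Baat, Abcb11 and Nr1h4 lay at percentiles 46.5, 44.8 and 41.9. The variable genes were thus Aqp8, Nr0b2, both hydroxylases and both uptake carriers, and the steady ones were those of conjugation, canalicular export and FXR. The median half-width of the unadjusted 95% intervals over the 9 genes was 0.281. The adjusted threshold is stricter than these intervals: Nr0b2, at 0.44 with an interval that leaves out 0, did not pass it.

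Markers of other cells and states were set beside these values. Of 11 measured Kupffer cell and macrophage markers, of 12 listed, 10 were higher in Tgfbr2+/- at an unadjusted p under 0.05, and library medians were -0.01 to 0.29 in Tgfbr2+/- and -0.26 to -0.13 in WT. The count was 6 with WT replicate 1 turned in sign and 9 with Tgfbr2+/- replicate 5 turned. As for Nr0b2, WT livers lay below the pool on this list, and its part in the Nr0b2 difference was not tested. Cholangiocyte markers, 10 of 12 measured, had library medians of -0.11 to 0.17 in Tgfbr2+/- and -0.04 to 0.05 in WT, and 0 had an unadjusted p under 0.05. Of the clock genes, 11 of 12 measured, which peak at different times of day, 0 had an unadjusted p under 0.05. Single clock genes did vary between mice: Nr1d1, chosen after its values were seen, was at -0.08, -0.39, -0.15, -0.08, 0.02 and 0.30 in Tgfbr2+/- livers, against -0.40, -0.54, -0.41 and 0.31 in WT livers. Genes of feeding state were read in 2 directions, a division made after the values were seen. Fasting-induced genes, 7 of 8 measured, had library medians of -0.14 to 0.05 in Tgfbr2+/- and -0.51 to 0.26 in WT, with the lowest in WT replicate 4. Feeding-induced genes, 4 of 5 measured, had library medians of -0.59 to 0.17 in Tgfbr2+/- and -0.24 to 0.11 in WT, and 0 genes of either direction had an unadjusted p under 0.05. The part of feeding state and time of day in the differences was not tested.

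Set against the WT pool, 3 of the 9 genes were lower in Tgfbr2+/- liver at an unadjusted p under 0.05, against 18.3% of all genes in either direction and 7.21% lower. They were Slc10a1 (limma adjusted p = 0.189), Aqp8 (limma adjusted p = 0.192) and Cyp8b1 (limma adjusted p = 0.215). None passed the adjusted threshold, which 0.0122% of all genes did. Most WT livers lay below the pool for these genes as well, 3 of 4 for Slc10a1 and Cyp8b1 and 4 of 4 for Aqp8. The WT means were 0.01 for Slc10a1, -0.19 for Cyp8b1 and -0.43 for Aqp8. In WT liver Nr0b2 was lower than the pool (limma adjusted p = 1.0), the 1 of 9 with an unadjusted p under 0.05, where 4.14% of all genes met it and 0.0% passed after adjustment. With Tgfbr2+/- replicate 5 turned in sign, Slc10a1 was the 1 of these 3 that still met the unadjusted threshold in Tgfbr2+/-, and Abcb11 (lower) and Slco1b2 (higher) met it too. With WT replicate 1 turned, Nr0b2 no longer met it in WT, and Nr1h4 did, as lower. This test leaves out the spread of the pool itself and any dye bias.

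The wider pathway was followed in 4 lists of 68 genes, of which 57 were measured, 48 of them outside the set. Of these 48, 23 had positive and 25 negative differences, with a median of -0.0255, and 0 passed the adjusted threshold. An unadjusted p under 0.05 was found for 6 of 48, 12.5%, beside 5.54% of all genes. They were Cyp7b1, Abcd3 and Foxa3 with positive differences and Slco1a4, Abcc3 and Cyp2b10 with negative ones. With WT replicate 1 turned in sign 5 of 48 met that threshold, 4 of them among these 6 (Cyp7b1 and Abcd3 dropped out and Acot8 came in), and with Tgfbr2+/- replicate 5 turned 0 did.

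**Figure D4:**
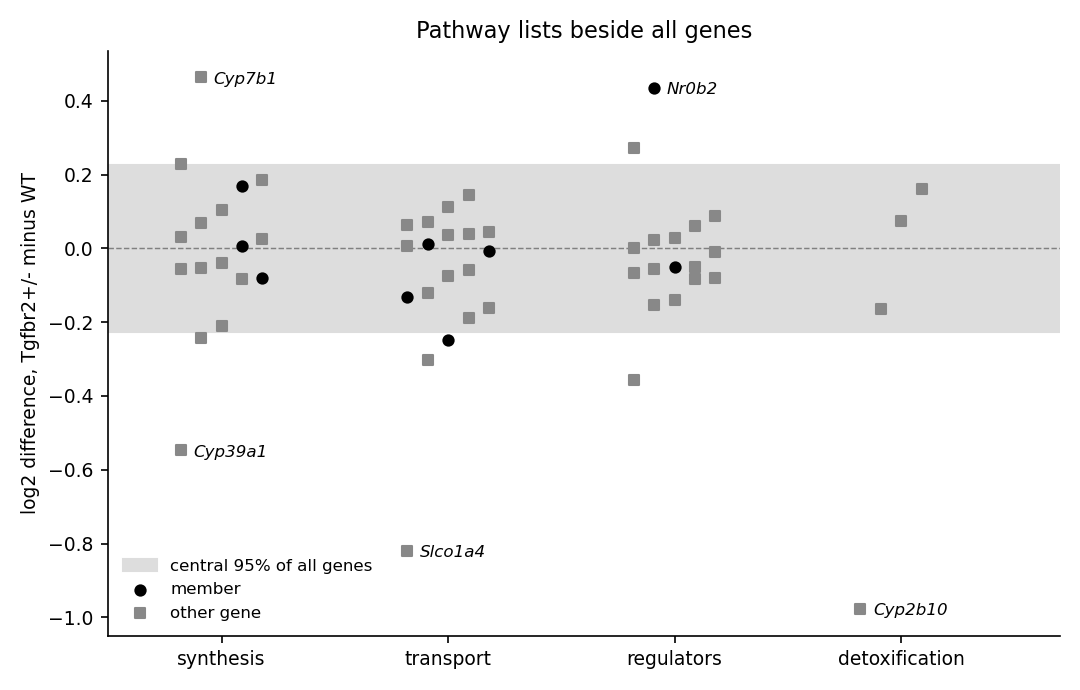
Difference Tgfbr2+/- minus WT in log2 ratio (y axis) for each measured gene of 4 bile acid lists (x axis), with genes of the set as black circles, other genes as grey squares and the central 95% of all genes, -0.23 to 0.23, shaded. Cyp2b10 and Slco1a4, at -0.98 and -0.82, lie farthest from 0, and points are spread sideways for visibility alone.

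Synthesis genes, 17 of 20 measured, were split 9 higher and 8 lower with a median of 0.0056. Cyp7b1, the oxysterol hydroxylase of the alternative route, was at 0.64, 0.80, 0.07, -0.04, 0.56 and 0.05 in Tgfbr2+/- livers, against -0.36, -0.03, -0.17 and 0.09 in WT livers. High values were those of Tgfbr2+/- replicates 1, 2 and 5, and the other 3 lay within the WT range. The difference was 0.46 ± 0.17 (limma adjusted p = 0.797, exact permutation p = 0.0619), and 0.28 with either unsettled library turned in sign. Abcd3, a peroxisomal transporter that carries bile acid precursors, differed by 0.19 ± 0.07 (limma adjusted p = 0.847, exact permutation p = 0.0333), and by 0.16 with WT replicate 1 turned and 0.09 with Tgfbr2+/- replicate 5 turned. Amacr, the racemase that prepares the precursors' side chain for peroxisomal oxidation, differed by 0.23 ± 0.11, and Akr1d1, a reductase that acts on the steroid ring, by -0.24 ± 0.11 (limma adjusted p = 0.917 for each). With WT replicate 1 turned these were 0.14 and -0.17, and with Tgfbr2+/- replicate 5 turned 0.08 and -0.13. Cyp39a1, another oxysterol hydroxylase, had a difference of -0.55 ± 0.40 (limma unadjusted p = 0.198) and was chosen after its values were seen.

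Transport genes, 19 of 20 measured, were split 9 higher and 10 lower with a median of -0.0064. Slco1a4, a sodium-independent carrier, was at 0.12, -1.05, -0.03, -1.47, -1.56 and -0.67 in Tgfbr2+/- livers, against 0.02, 0.10, 0.10 and -0.04 in WT livers. The WT livers were close together, while Tgfbr2+/- livers formed 4 low values and 2 at the WT level. The difference was -0.82 ± 0.31, or 1.76-fold lower (limma adjusted p = 0.804, exact permutation p = 0.0762), -0.81 with WT replicate 1 turned in sign and -0.30 with Tgfbr2+/- replicate 5 turned. Abcc3, which exports bile acid conjugates back to blood, differed by -0.30 ± 0.12 (limma adjusted p = 0.856, exact permutation p = 0.0667), and by -0.32 and -0.11 with those libraries turned. Slco2b1, another organic anion carrier, differed by -0.16 ± 0.09 (limma adjusted p = 0.917), and Abcg2, an export pump of wide substrate range, by 0.14 ± 0.10 (limma adjusted p = 0.919). With WT replicate 1 turned these were -0.10 and 0.17, and with Tgfbr2+/- replicate 5 turned -0.12 and 0.18.

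Regulators, 17 of 20 measured, were split 7 higher and 10 lower with a median of -0.0496, and those with an unadjusted p under 0.05 were Nr0b2 and Foxa3. Foxa3, a forkhead factor of hepatocytes, was at 0.37, 0.29, 0.34, 0.31, 0.22 and 0.54 in Tgfbr2+/- livers, against 0.07, 0.14, -0.19 and 0.29 in WT livers. All Tgfbr2+/- livers lay above 3 of the 4 WT livers, and WT replicate 4 lay within their range. The difference was 0.27 ± 0.09 (limma adjusted p = 0.732, exact permutation p = 0.0095), and it was 0.30 with WT replicate 1 turned in sign (unadjusted p = 0.00713) and 0.20 with Tgfbr2+/- replicate 5 turned (unadjusted p = 0.176). The coactivator Ppargc1a differed by -0.36 ± 0.20 (limma adjusted p = 0.917). The receptor Fgfr4, through which FGF15 from the gut acts on hepatocytes, differed by 0.09 ± 0.05 (limma adjusted p = 0.917), and the xenobiotic receptor gene Nr1i2 by -0.15 ± 0.10 (limma adjusted p = 0.920). For Ppargc1a, Fgfr4 and Nr1i2 the differences were -0.37, 0.03 and -0.03 with WT replicate 1 turned, and -0.31, 0.08 and -0.19 with Tgfbr2+/- replicate 5 turned.

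Of the detoxification genes, 4 of 8 were measured, 2 higher and 2 lower, with a median of -0.0451. Cyp2b10, a cytochrome P450 induced through the receptor CAR, was at -1.10, -1.22, -0.21, -0.66, -1.02 and -0.84 in Tgfbr2+/- livers, against 0.32, 0.33, 0.67 and -0.77 in WT livers. All Tgfbr2+/- livers lay below 3 WT livers, and WT replicate 4 lay among them. The difference was -0.98 ± 0.27, or 1.97-fold lower (limma adjusted p = 0.616, exact permutation p = 0.0190), and it was -0.82 with WT replicate 1 turned in sign and -0.64 with Tgfbr2+/- replicate 5 turned (unadjusted p = 0.159). The glucuronosyltransferase Ugt2b1 differed by 0.16 ± 0.11, Cyp3a11, a monooxygenase that PXR induces, by -0.16 ± 0.20, and Sult2a8, a sulfotransferase that acts on bile acids in mouse liver, by 0.07 ± 0.12, none of them past the unadjusted threshold. For Ugt2b1, Cyp3a11 and Sult2a8 the differences were 0.07, -0.33 and 0.11 with WT replicate 1 turned, and 0.19, -0.12 and 0.10 with Tgfbr2+/- replicate 5 turned.

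Known regulation joins 6 pairs of these genes, and their ratios were correlated over the 10 livers. None passed after adjustment over the 6 pairs. Cyp7a1 and Cyp8b1, both repressed through SHP, had r = 0.72 (permutation p = 0.0189, adjusted p = 0.114) and rho = 0.54 (permutation p = 0.114). Without WT replicates 2 and 3, the livers farthest from the median of Cyp7a1, r was 0.19, so the relation rests on those 2 livers. It was 0.62 with WT replicate 1 turned in sign and 0.63 with Tgfbr2+/- replicate 5 turned. Nr0b2 had r = 0.24 against Cyp7a1 (permutation p = 0.498, adjusted p = 0.892, rho = 0.30) and r = -0.07 against Cyp8b1 (permutation p = 0.860, adjusted p = 0.892, rho = 0.12). Leaving out the 2 livers farthest from the median of Nr0b2 gave r = 0.20 and r = -0.20. With Tgfbr2+/- replicate 5 turned in sign they were 0.34 and -0.31, with WT replicate 1 turned 0.21 and 0.055, and without WT replicate 2 the r of Nr0b2 and Cyp7a1 was 0.74. Nr1h4 and Nr0b2 had r = 0.05 (permutation p = 0.889, adjusted p = 0.892, rho = 0.13).

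Within the 6 Tgfbr2+/- livers the r of Nr1h4 and Nr0b2 was 0.65 (exact permutation p = 0.164), and over 10 livers without the 2 farthest it was 0.16. Nr0b2 and Abcb11, both activated through FXR, had r = 0.39 (permutation p = 0.275, adjusted p = 0.824, rho = 0.44), which was -0.06 without the 2 farthest livers and 0.088 with Tgfbr2+/- replicate 5 turned in sign. Slc10a1 and Abcb11, the carriers of uptake and export, had r = -0.05 (permutation p = 0.892, adjusted p = 0.892, rho = -0.35), and -0.15 without the 2 farthest. Over all 36 pairs of the 9 genes, 21 correlations were positive and 15 negative, with a median of 0.056.

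**Figure D5:**
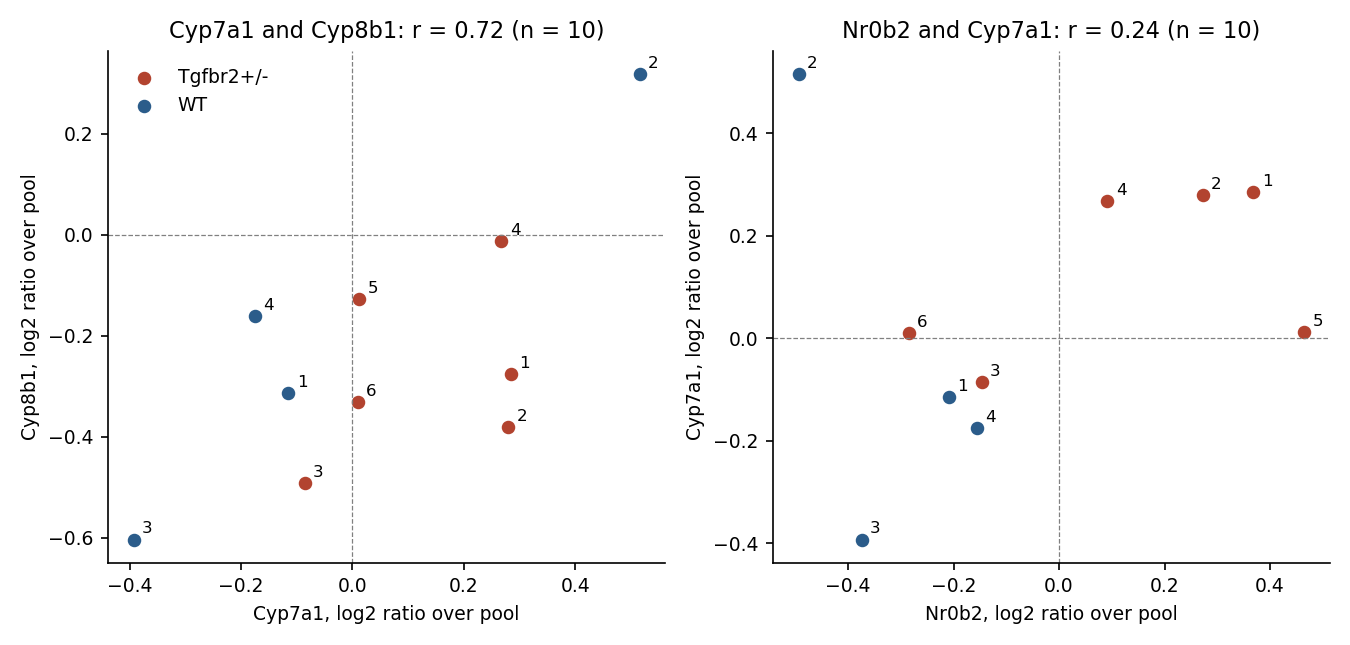
Log2 ratios over the WT pool for Cyp8b1 against Cyp7a1 (left) and Cyp7a1 against Nr0b2 (right), a point per mouse numbered by replicate, with Tgfbr2+/- and WT in separate colours. WT replicates 2 and 3 lie at the upper right and lower left ends of the left panel, and WT replicate 2 lies at the upper left of the right panel, where r is 0.24 with it and 0.74 without it.

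The genes whose ratios ran most like those of a member over the 10 livers were found among 16382 others, by Pearson's r and as a description. For Cyp7a1 they were Efna4 (r = 0.94), Slc5a12 (0.94) and Prkag3 (0.93). For Cyp8b1 they were Wipi2 (r = 0.94), Pex19 (0.90) and Rab42 (0.90). For Nr0b2 they were Enpp5 (r = 0.95), Slc46a3 (0.93) and Bad (0.93), and for Aqp8 they were Hspa2 (r = 0.95), Derl2 (0.93) and Vmn2r26 (0.90). Each is the top of a large number of comparisons over 10 points that share 1 pool. With the sign of either unsettled library turned, r for the 3 partners of Cyp8b1 was 0.56 to 0.76, whereas that of Hspa2 with Aqp8 was 0.94 and 0.97.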

How the data were processed

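Liver RNA of 6 Tgfbr2+/- and 4 WT mice was compared with a WT liver pool on 2-colour arrays, labelled with Cy3 in channel 1 and Cy5 in channel 2, per the labels. RNA was amplified with an aminoallyl chemistry, per the labels' protocols. Dye swaps took part, per the series' design text, but whether a column joins a swapped pair, and how the authors scanned, corrected and normalized the arrays, is not stated in the labels used here. The deposited values are ratios on a log scale, taken as log10 because 8 values lie at exactly 2 or -2 (100-fold). A factor of 3.32 turned them into log2 ratios, and they were not normalized again. Column medians of these log2 ratios were 0.0043 to 0.0156, so the centring is known, whereas scale and direction are inferred. No value was missing.

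Of 23438 probes, 17726 carry 1 gene symbol, 50 carry several and 5662 carry none, and probes of 1 symbol were averaged to 16383 genes. Group differences and group means against the pool were fitted with limma 3.58.1 (lmFit, eBayes, two-sided, R 4.3.3), Benjamini-Hochberg adjusted over all genes, with a threshold of 0.05. Single values were also compared with a two-sided exact permutation test, and correlations with 100000 resamples. Intervals are 95%. The fit was tested on simulated data. Mice are the replicates, as the titles number them. The genes of the set, the pathway lists and the marker lists (cholangiocyte, hepatocyte, Kupffer cell, endothelial, stellate, lymphocyte, clock, feeding, pericentral and periportal) were chosen with earlier results of these data known. The genes named beyond the set are Tgfbr2, the 4 genes of smallest p in each pathway list, and the 3 most alike genes of Cyp7a1, Cyp8b1, Nr0b2 and Aqp8, and any other is marked as chosen after its values were seen. Alternatives were column centring, quantile normalization, array weights, a replicate block, a fit per probe, a trended robust fit, turned columns and leaving out each library.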

Additional observations from a re-analysis of the deposited data

Results flagged for a closer look

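In 52 sets of libraries, the 6 Tgfbr2+/- or the 4 WT values of a gene, the highest or lowest value was compared with the others, and 4 sets held a value that stood apart. By chance about 1 set in 20 holds such a value, a share not far from 4 of 52. Slco1b2, the uptake carrier, was at -0.47 in Tgfbr2+/- replicate 5, against -0.04 to 0.20 in the other 5 Tgfbr2+/- livers. Slc10a1, the sodium-dependent carrier, was at 0.40 in WT replicate 2, against -0.15 to -0.10 in the other 3 WT livers. Aqp8, the water channel, was at -0.72 in WT replicate 2, against -0.35 to -0.31 in the other 3. Nr1i2, the gene of the xenobiotic receptor PXR, was at -0.10 in WT replicate 4, against 0.18 to 0.24 in the other 3. The liver of WT replicate 2 thus stood apart for 2 genes of the set, in opposite directions, with the columns as deposited. The comparison was not repeated with either unsettled library turned in sign. With WT replicate 1 turned, WT replicate 2 would lie nearer to another WT liver for Slc10a1. WT replicate 1 would then be farthest out for Aqp8 and lowest for Nr1i2. The Slco1b2 value is that of an unsettled library and would be the highest of its group if turned.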

How the results depend on the processing

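No gene of the set passed the adjusted threshold between groups or against the pool under any of the alternatives. The count at an unadjusted p under 0.05 between groups, 1, was 0 with Tgfbr2+/- replicate 5 turned in sign, 2 with array weights, and 1 to 2 with a library left out. The count by the exact permutation test, 1, was 0 with WT replicate 1 or Tgfbr2+/- replicate 5 turned, and 0 to 1 with a library left out. In WT against the pool the count, 1, was 2 with quantile normalization or array weights and 0 to 2 with a library left out, and in Tgfbr2+/- against the pool, 3, it was 2 to 4 with a library left out. With a library turned these counts against the pool were the same, and the genes changed only in the group of the turned library. Over all genes 0 passed, and 0 to 10 with a library left out, the 10 without Tgfbr2+/- replicate 3. Of the 6 pairs 0 passed, and 0 to 1 with a library left out, Cyp7a1 and Cyp8b1 without Tgfbr2+/- replicate 2 (r = 0.82, permutation p = 0.00735). Nr0b2, Slc10a1 and Cyp7a1 kept their direction under all alternatives. Cyp8b1, Baat, Slco1b2, Abcb11, Aqp8 and Nr1h4, with main differences of -0.13 to 0.01, changed sign under 1 or more alternatives. The cause was not tested. Slco1b2 was at 0.0071 with quantile normalization, 0.088 with WT replicate 1 turned, 0.15 with Tgfbr2+/- replicate 5 turned, 0.030 with array weights, 0.097 with the replicate block and -0.085 to 0.089 with a library left out. Abcb11 was at -0.074 and -0.0019 with those libraries turned, at -0.021 with the block and at -0.014 to 0.055 with a library left out. Nr1h4 was at 0.033 with WT replicate 1 turned and at -0.094 to 0.0086 with a library left out. Aqp8 was at 0.18 with Tgfbr2+/- replicate 5 turned, at -0.31 with WT replicate 1 turned, at -0.0015 with quantile normalization, at 0.061 with the block and at -0.35 to -0.05 with a library left out. With a library left out Baat was at -0.024 to 0.042 and Cyp8b1 at -0.22 to 0.089. The r of Nr0b2 and Cyp8b1 was 0.054 with quantile normalization, 0.055 with WT replicate 1 turned, 0.42 within Tgfbr2+/-, -0.31 with Tgfbr2+/- replicate 5 turned and -0.29 to 0.50 with a library left out. That of Slc10a1 and Abcb11 was 0.18 with WT replicate 1 turned and -0.28 to 0.067 with a library left out. That of Nr1h4 and Nr0b2 was -0.12 with Tgfbr2+/- replicate 5 turned and -0.092 to 0.30 with a library left out, and that of Nr0b2 and Abcb11 was -0.056 without the 2 farthest livers. Whether replicate numbers pair the groups was not tested. Deviations of same-numbered libraries correlated at 0.0871, 0.0916, 0.302 and 0.00722, and 2 of 4 WT libraries correlated best with their own number. With the replicate block Nr0b2 differed by 0.45, Slc10a1 by -0.32 and Cyp7a1 by 0.23, and the block changed no call. No intensities were at hand, so signal over background could not be set beside any value.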

Other observations

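For 3 of the 9 genes, picked after their values were seen, Tgfbr2+/- replicates 1, 2 and 4 lay apart from replicates 3, 5 and 6, and for the other 6 genes they did not. Slc10a1 was at -0.32, -0.41 and -0.42 in replicates 1, 2 and 4, and at -0.09, -0.10 and -0.11 in replicates 3, 5 and 6. Baat was at 0.10, 0.14 and 0.17 in replicates 1, 2 and 4, and at -0.09, -0.11 and -0.06 in the other 3. Cyp7a1 was at 0.29, 0.28 and 0.27 in replicates 1, 2 and 4, and at -0.09, 0.01 and 0.01 in the other 3. With the sign of replicate 5 turned, Baat no longer divides in this way, whereas Nr0b2 then does. The labels name nothing that sets these livers apart.

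Other marker lists held 0 to 2 genes with an unadjusted p under 0.05 each, and those named here were chosen after their values were seen. Endothelial markers, 10 of 10 measured, had medians of -0.02 to 0.07 in Tgfbr2+/- and -0.03 to 0.02 in WT, and 2 were higher at that threshold (Clec4g and Fcgr2b). Stellate cell markers, 9 of 10, had medians of -0.10 to 0.17 in Tgfbr2+/- and -0.11 to 0.09 in WT, with 0 at that threshold. Lymphocyte markers, 9 of 10, had medians of -0.04 to 0.25 in Tgfbr2+/- and -0.11 to 0.06 in WT, and 1 was higher (Ptprc). Tgfbr2+/- replicates 1, 2, 4 and 6, at 0.11 to 0.25, lay above all WT livers on this list. Pericentral genes, 9 of 10, had medians of -0.15 to 0.14 in Tgfbr2+/- and -0.13 to 0.13 in WT, and 1 was lower (Slc1a2). Periportal genes, 6 of 10, had medians of -0.28 to 0.28 in Tgfbr2+/-, with the highest in replicate 5, and -0.31 to 0.04 in WT, with the lowest in replicate 4, and 1 was higher (Ctsc).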
